A study of Homo sapiens with 4 samples.

Results

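The replication-dependent histone genes lie in clusters and supply the bulk of the histones that package DNA as it is copied. In the table they were found by mapping each versioned Ensembl identifier to its GENCODE 29 name and keeping protein-coding genes named HIST1 to HIST4 followed by H1, H2A, H2B, H3 or H4. This gave 58 of the 25609 genes in the table. The annotation holds 71 protein-coding genes of this name pattern, and the other 13 are not analysed here. By class, the 58 genes were 6 of 6 H1 genes, 12 of 17 H2A genes, 17 of 18 H2B genes, 10 of 15 H3 genes and 13 of 15 H4 genes.

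The measurements were made in HK-2, an immortalised human cell line derived from the kidney's proximal tubule. The groups were 2 libraries of wild-type HK-2 cells treated with TGF-β1 and 2 libraries of wild-type HK-2 control cells. The protocol text, which is the same for every sample, gives serum-free medium for 24 h, TGF-β1 at 20 ng/mL for 24 h and 4-thiouridine, a nucleoside taken up into new RNA, at 100 µM for the last 20 h. Only the title and the treatment entry set the controls apart, and they are read here as cells handled alike but without TGF-β1. Total RNA was sequenced after a strand-preserving library preparation, and the sources used here do not say whether poly(A) selection or enrichment of labelled RNA was used.

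Histone proteins form the nucleosome: H2A pairs with H2B, H3 pairs with H4, and H1 binds the linker DNA. The clustered genes are transcribed mainly in S phase. Their mRNAs are the best-known animal mRNAs without a poly(A) tail and end just after a stem-loop, which is bound by SLBP and recognised with the U7 small nuclear RNP, although some of these genes can also make polyadenylated mRNA when cells stop dividing.

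The stem-loop is shown because it is the feature by which these mRNAs are processed and kept. A 6-base stem with a 4-base loop, searched as the histone stem-loop consensus of 16 bases, was present in the annotated 3′ untranslated region of 26 of the 30 members that have one. Across all 19390 protein-coding genes with an annotated 3′ untranslated region, 58 genes (0.299%) held such a match, of which 32 carried a name of the clustered histone pattern. Only 6 different sequences occurred among the 26 members. The commonest was shared by 13 members and the next, which has another stem, by 5. Capitals mark the stem, lower case the loop, in the sense strand (GENCODE 29 transcripts, hg38):
HIST1H2AC, chr6:26124669-26124684, plus strand: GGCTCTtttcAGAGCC
HIST1H2BC, chr6:26123472-26123487, minus strand: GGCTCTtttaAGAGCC
HIST1H3E, chr6:26225596-26225611, plus strand: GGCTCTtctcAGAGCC
HIST1H4B, chr6:26026901-26026916, minus strand: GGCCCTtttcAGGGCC
The H2A, H2B and H3 examples share the same stem and differ in the loop. These loops are not particular to a class: HIST1H2BG and HIST1H3H have the same sequence as HIST1H2AC. The HIST1H3E sequence occurred in 1 member only. The H4 example has a different stem. The annotation of HIST1H2BK ends with its coding sequence, so no stem-loop could be looked for there.

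The start regions of HIST1H2BC and HIST1H2BK are shown because these were the members called higher with TGF-β1 in the limma fit given below, at an adjusted p below 0.05. RefSeq windows of 300 bases (250 before and 50 after the start, GRCh38.p14) were matched to 51 of the 58 members. The motifs searched on both strands, in capitals where found, were the octamer ATTTGCAT, the TATA box TATAAA and the CCAAT box CCAAT.
HIST1H2BC, chr6:26123877-26124176, minus strand: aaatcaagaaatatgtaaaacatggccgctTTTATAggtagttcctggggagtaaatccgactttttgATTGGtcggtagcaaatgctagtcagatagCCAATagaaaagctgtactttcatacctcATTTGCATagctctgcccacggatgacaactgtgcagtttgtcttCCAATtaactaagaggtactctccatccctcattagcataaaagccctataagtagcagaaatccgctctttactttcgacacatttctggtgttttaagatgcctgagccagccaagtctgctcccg
HIST1H2BK, chr6:27146809-27147108, minus strand: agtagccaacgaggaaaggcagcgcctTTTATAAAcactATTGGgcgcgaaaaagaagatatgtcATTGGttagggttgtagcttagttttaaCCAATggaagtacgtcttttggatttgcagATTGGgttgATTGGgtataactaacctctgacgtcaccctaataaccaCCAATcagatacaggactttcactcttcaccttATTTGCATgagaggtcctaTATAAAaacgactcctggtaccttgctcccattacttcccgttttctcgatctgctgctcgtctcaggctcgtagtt
The octamer was present in the windows of 13 of 17 H2B genes (76.5%) and 8 of 11 H2A genes (72.7%), and in 0 of 6 H1, 0 of 6 H3 and 0 of 11 H4 genes. It was present in 1.77% of all 35116 RefSeq windows. A TATA box, on either strand and anywhere in the window, was present in 64.7% of members, against 11.5% of all windows. Such a match can belong to a partner gene transcribed the other way. A CCAAT box was present in 84.3% of members, against 34.6% of all windows, but in only 27.3% of the H4 genes. HIST1H2AC and HIST1H2BC are transcribed away from each other from starts 219 bases apart, their windows share 255 bases, and both windows hold the same single octamer (chr6:26124042-26124049). The only TATA match in the HIST1H2BC window is on its other strand and is the same site as that of the HIST1H2AC window. These are matches of letters and were not tested as binding sites.

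Levels are given in RPKM, reads scaled to exon length and library size, as the authors deposited them. Whole reads could be recovered for 99.6% of genes, and gave 4639276 and 5452258 reads in TGF-β1 libraries 1 and 2, against 3337059 and 4802151 in control libraries 1 and 2. The 58 histone genes took 1080 and 1335 of these reads in the TGF-β1 libraries, against 680 and 1116 in the control libraries, so many members rest on a few reads each. The deposited values carry an offset of 0.5 read, so that a gene without reads is not at 0. The kidney epithelial genes PAX8, EPCAM, KRT8 and KRT18 were between 14.7 and 183 RPKM in every library, and CDH1 was between 0.499 and 1.22 RPKM. Of the proximal tubule genes in the table, GGT1 was between 16.8 and 20.4 RPKM, while SLC34A1, AQP1, CUBN and ANPEP were at or under 0.385 RPKM, so that 4 of 5 of these markers were near 0. Fibroblast, endothelial and leukocyte genes (COL3A1, DCN, VWF, CDH5, CD68) were at or under 0.472 RPKM, except LUM at 6.74 to 12.9 RPKM.

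Summed over the 58 genes, the level was 380.3 and 432.9 RPKM in TGF-β1 libraries 1 and 2, and 308.1 and 353.4 RPKM in control libraries 1 and 2. Both TGF-β1 libraries were above both control libraries, and the ratio of the group means was 1.23. With libraries scaled by their recovered reads in place of the authors' scaling, the sums were 340.7 and 373.9 with TGF-β1, against 313.0 and 345.9 in controls, so the groups overlapped and the ratio was 1.08. With 2 libraries against 2, the smallest p an exact permutation test can give is 0.333. In bulk RNA, a different number of cells in S phase and a different amount of histone mRNA per cell cannot be told apart. Most of the difference lay in H2B, which summed to 167.2 and 181.3 RPKM with TGF-β1, against 123.1 and 133.0 RPKM in controls (ratio 1.36). The H2A genes summed to 51.2 and 65.3 RPKM with TGF-β1, against 47.9 and 48.8 RPKM in controls (ratio 1.21). The H3 genes summed to 46.0 and 48.5 RPKM with TGF-β1, against 36.6 and 45.2 RPKM in controls (ratio 1.15). For these 3 classes the groups did not overlap. The H4 genes summed to 57.4 and 72.1 RPKM with TGF-β1, against 49.8 and 65.3 RPKM in controls (ratio 1.13), and the H1 genes to 58.5 and 65.6 RPKM with TGF-β1, against 50.6 and 61.0 RPKM in controls (ratio 1.11). For both of these the groups overlapped. Under scaling by recovered reads, an alternative chosen for the classes after seeing the data, only H2B did not overlap, at 149.8 and 156.6 with TGF-β1, against 125.1 and 130.2 in controls (ratio 1.2). The ratio was then 1.06 for H2A, 1.02 for H3, 0.993 for H4 and 0.981 for H1, so that the direction for H4 and H1 turned. HIST1H2BK alone made up 23.5% and 23.2% of the summed level in the TGF-β1 libraries, against 22.0% and 15.9% in the control libraries. Without it the ratio of the summed levels was 1.16. Within H2B, HIST1H2BK made up from 42.2% of the sum in control library 2 to 55.5% in TGF-β1 library 2. The H2B difference therefore rests in large part on this gene. Without HIST1H2BK, both TGF-β1 libraries stayed above both controls for H2B under the authors' scaling, but only by little over control library 2. Under scaling by recovered reads the H2B groups then overlapped, with control library 2 the highest.

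**Figure D1:**
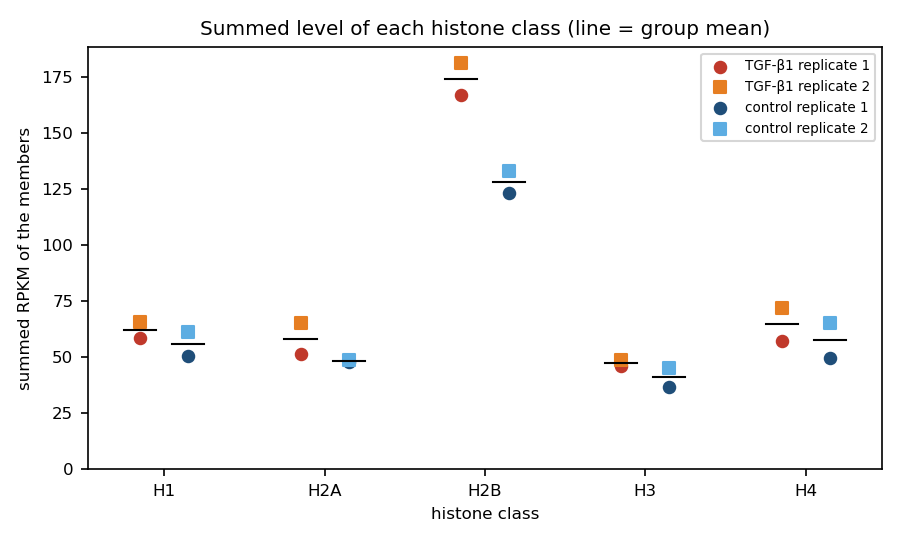
Summed RPKM under the authors' scaling (y axis) of the members of each histone class (x axis) in each library, with TGF-β1 left of control and a line at each group mean. The H2B genes, HIST1H2BK included, summed to 167.2 and 181.3 RPKM with TGF-β1 and to 123.1 and 133.0 RPKM in controls. They are the class with the widest gap between groups.

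Of the 58 genes, 55 had a mean of at least 0.5 RPKM over the 4 libraries and were tested with limma on log2(RPKM + 0.5), which understates the change of low genes. HIST1H1A, HIST2H4A and HIST3H2BB were below this level. A gene was called at an adjusted p (Benjamini-Hochberg over all 16590 genes tested) below 0.05. The labels name no separate cultures, so these p-values measure only the spread between libraries, which may be technical. Of the histone genes, 2 (3.64%) were called, HIST1H2BK and HIST1H2BC, and both rose with TGF-β1. Of all genes, 9.12% were called, 6.12% higher and 3.0% lower. No histone gene was called lower by limma (0 of 55), with 2 lower at an unadjusted p below 0.05, HIST1H4A and HIST1H2AH, and 0 were called lower by limma voom on the recovered reads. At an unadjusted p below 0.05 there were 10 histone genes, 8 higher and 2 lower, or 18.2% against 25.0% of all genes. The share of histone genes called was therefore below that of genes at large.

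The fold changes nevertheless leaned to one side. Of the 55 histone genes, 39 (70.9%) had a positive log2 fold change, against 52.8% of all genes tested. Their median log2 fold change was 0.25, against 0.026 for all genes, and single values ran from -0.65 to 1.74. In 16 genes (29.1%) both TGF-β1 libraries were above both controls, against 29.5% of all genes. In 6 genes (10.9%) both were below both controls, against 24.6% of all genes, and in the other 33 the groups overlapped. The medians by class were 0.059 for H1, 0.16 for H2A, 0.27 for H2B, 0.28 for H3 and 0.28 for H4. The median was 0.37 without TGF-β1 library 1 and 0.31 without control library 2, but 0.12 without TGF-β1 library 2 and 0.11 without control library 1. It also moved with scaling. When libraries were scaled by their recovered reads, the median of all genes was -0.13 in place of 0.026, that of the histone genes was 0.070, and 32 of 55 were positive. Relative to all genes the histone median was 0.20 higher under that scaling and 0.22 higher under the authors' scaling. With each library left out, this gap ran from 0.074 without control library 1 to 0.34 without TGF-β1 library 1. The calls over all genes were 655 higher and 890 lower under scaling by recovered reads, against 1015 higher and 498 lower under the authors' scaling.

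**Figure D2:**
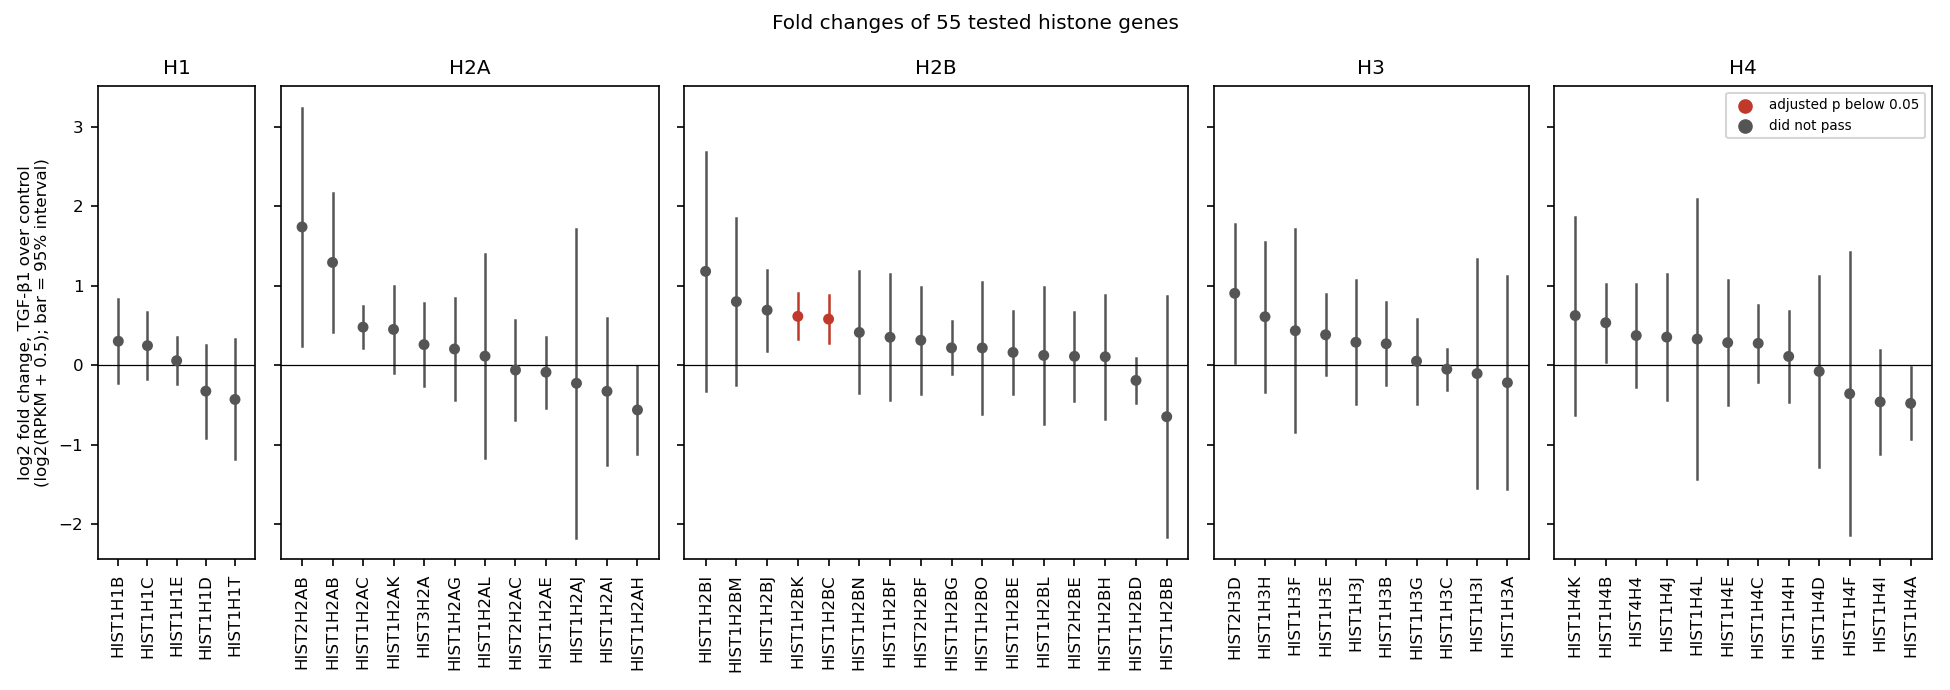
Log2 fold change of TGF-β1 over control on log2(RPKM + 0.5) (y axis) for the 55 tested histone genes (x axis), by class and in falling order, with 95% intervals from limma. The 2 genes called at an adjusted p below 0.05, HIST1H2BK and HIST1H2BC, are in red at 0.62 and 0.58, and the genes with larger values have wider intervals.

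H2B was the class with both called genes, and 14 of its 16 tested members had a positive log2 fold change. HIST1H2BK (now named H2BC12, chr6:27146418-27146798, minus strand) was the most abundant clustered histone gene. Its level was 89.4 and 100.6 RPKM in TGF-β1 libraries 1 and 2, and 67.7 and 56.1 RPKM in control libraries 1 and 2, from 141 and 180 reads with TGF-β1, against 87 and 100 reads in controls. Both TGF-β1 libraries were above both controls, a 1.53-fold difference of the means, with a log2 fold change of 0.62 (95% interval 0.33 to 0.91, limma adjusted p = 0.0371). The call was lost in 8 of 15 alternatives, among them without TGF-β1 library 2 (adjusted p = 0.104) and without control library 2 (adjusted p = 0.0601), and under scaling by recovered reads (log2 fold change 0.44, adjusted p = 0.0874). Of the 332 words of 50 bases in its annotated exon, 74.1% also occur in other genes, with 61.4% in H2BFS, a near-identical H2B sequence that has 0 rows in the table. The sources used here do not say how reads were divided between such copies, so the value of HIST1H2BK is uncertain as that of a single gene.

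HIST1H2BC (H2BC4, chr6:26114873-26123926, minus strand) rose by a like amount from a lower level. It had 7.07 and 7.26 RPKM with TGF-β1, against 4.77 and 4.46 RPKM in controls, from 24 and 28 reads with TGF-β1, against 13 and 17 reads in controls. The groups did not overlap and the log2 fold change was 0.58 (95% interval 0.28 to 0.88, limma adjusted p = 0.0472), a 1.55-fold difference. Of its 50-base words 6.63% occur in other genes. This call was lost in 11 of 15 alternatives: whichever library was left out, it ended (adjusted p 0.0854 to 0.222), as it did with voom on the recovered reads (adjusted p = 0.218). HIST1H2BJ, the third most abundant H2B gene, was at 21.7 and 15.8 RPKM with TGF-β1, against 9.78 and 12.9 RPKM in controls. Both TGF-β1 values exceeded both controls, but the gene did not pass (log2 fold change 0.69, adjusted p = 0.106), while voom called it (adjusted p = 0.0305). HIST1H2BD ran the other way at 14.5 and 15.5 RPKM with TGF-β1, against 15.7 and 18.7 RPKM in controls. Its TGF-β1 values were both below the controls, without passing (log2 fold change -0.19, adjusted p = 0.379).

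Of the further H2B genes, HIST1H2BO was at 10.4 and 15.9 RPKM with TGF-β1, against 8.13 and 14.8 RPKM in controls, with library 2 the higher in each group. HIST1H2BG was at 5.72 and 5.61 RPKM with TGF-β1, against 5.09 and 4.51 RPKM in controls, above both but by little (log2 fold change 0.22). HIST1H2BB had the most negative value of all members, -0.65. Its reads were 2 and 2 with TGF-β1, against 1 and 9 in controls, so control library 2 stood apart from the rest, and the gene was called lower with control library 1 left out. HIST1H2BI had 4 and 6 reads with TGF-β1, against 0 and 4 reads in controls, and a log2 fold change of 1.18 with an interval from -0.32 to 2.68. HIST1H2BM had 2 and 2 reads with TGF-β1, against 1 and 0 reads in controls. By promoter, the 13 tested H2B genes with an octamer had a median log2 fold change of 0.32, and the 3 without one had 0.13. Those 3 ran from -0.19 in HIST1H2BD to 0.41 in HIST1H2BN, a range that includes the other median, and the difference was not tested.

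H2A genes fall into the same clusters as their H2B partners, and 7 of 12 had a positive log2 fold change. HIST1H2AC, the most abundant H2A gene and the partner of HIST1H2BC, was at 12.3 and 11.6 RPKM with TGF-β1, against 8.04 and 8.87 RPKM in controls. The groups did not overlap, on 85 and 91 reads with TGF-β1, against 45 and 69 reads in controls, and the gene came just outside the threshold (log2 fold change 0.48, 95% interval 0.22 to 0.74, limma adjusted p = 0.0535). Among genes of at least 2 RPKM alone it was called, with an adjusted p of 0.0334. HIST1H2AE was at 6.38 and 8.55 RPKM with TGF-β1, against 7.24 and 8.57 RPKM in controls, with the groups overlapping (log2 fold change -0.086). HIST1H2AH, the partner of HIST1H2BK, was at 4.04 and 6.31 RPKM with TGF-β1, against 8.0 and 7.42 RPKM in controls. Both TGF-β1 libraries were below both controls without passing (log2 fold change -0.56, adjusted p = 0.193).

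The steepest positive values of all members were in 2 H2A genes of few reads. HIST2H2AB had 9 and 7 reads with TGF-β1, against 0 and 4 reads in controls, and a log2 fold change of 1.74 (95% interval 0.24 to 3.25, adjusted p = 0.149). HIST1H2AB had 9 and 7 reads with TGF-β1, against 1 and 4 reads in controls, and a log2 fold change of 1.30 (95% interval 0.42 to 2.17, adjusted p = 0.0876). Neither passed with all libraries, and both were called without control library 2, as was HIST1H2BI. HIST2H2AB overlaps an exon of BOLA1 on the opposite strand, and the sources used here do not say whether counting used strand. Among the other H2A genes, HIST1H2AK was at 2.75 and 3.51 RPKM with TGF-β1, against 1.88 and 2.44 RPKM in controls, and HIST1H2AL at 2.75 and 8.92 RPKM with TGF-β1, against 4.13 and 5.14 RPKM in controls. Both overlap an exon of HIST1H2BN, HIST1H2AK on the opposite strand and HIST1H2AL on the same strand, so their reads may be shared with it. HIST1H2AJ had 0 and 6 reads with TGF-β1, against 2 and 2 reads in controls, the widest interval among members (-2.17 to 1.72).

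**Figure D3:**
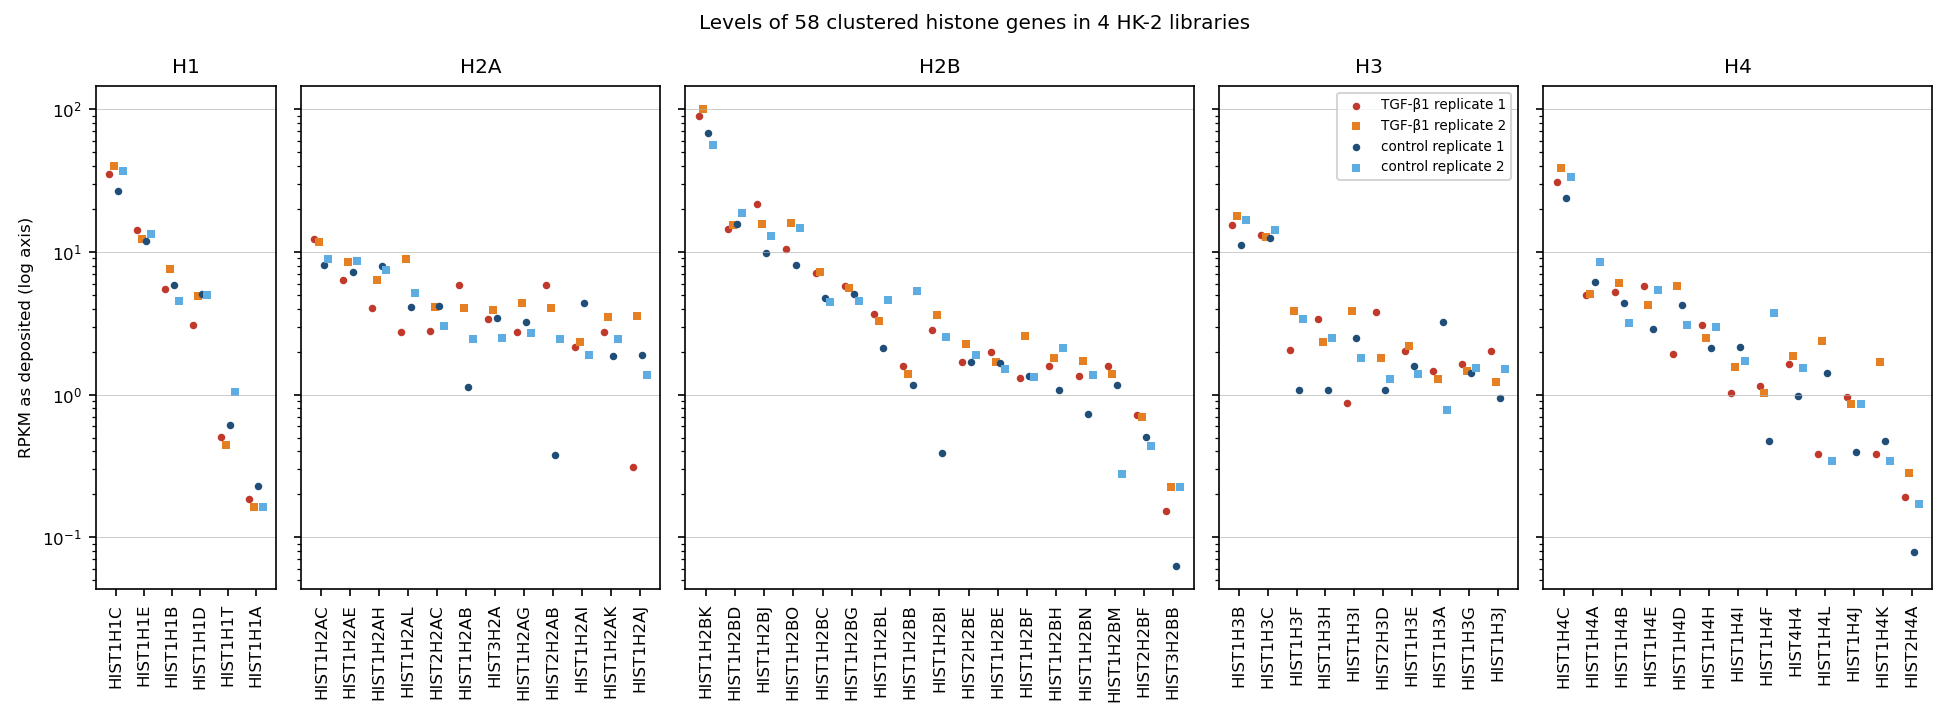
Deposited RPKM on a log axis for all 58 clustered histone genes (x axis), by class and in falling order of mean level, with the TGF-β1 libraries left of the controls. HIST1H2BK stands highest at 89.4 and 100.6 RPKM with TGF-β1 and 67.7 and 56.1 RPKM in controls, and HIST1H1A, without reads, stands at the offset, 0.164 to 0.228 RPKM.

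There were 8 head-to-head pairs of an H2A and an H2B gene, transcribed away from each other from starts at most 500 bases apart. In the 7 pairs with both genes tested, the partners' log2 fold changes had the same sign in 2 pairs and opposite signs in 5. The same-sign pairs were HIST1H2AC with HIST1H2BC (0.48 and 0.58) and HIST1H2AG with HIST1H2BJ (0.21 and 0.69). HIST1H2AH and HIST1H2BK, with starts 331 bases apart, had -0.56 and 0.62, and theirs were the only intervals that did not overlap. Levels within pairs were unequal too: the mean RPKM of HIST1H2BK was 12.2 times that of HIST1H2AH, that of HIST1H2BJ was 4.61 times that of HIST1H2AG, and that of HIST1H2BC was 0.576 times that of HIST1H2AC. The HIST1H2BJ and HIST1H2BC ratios compare unlike exon models, of 950 against 2250 bases and 834 against 1668 bases, by which RPKM divides. Under the authors' scaling the H2B gene had the higher log2 fold change in each of the 7 pairs, a difference that was not tested.

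**Figure D4:**
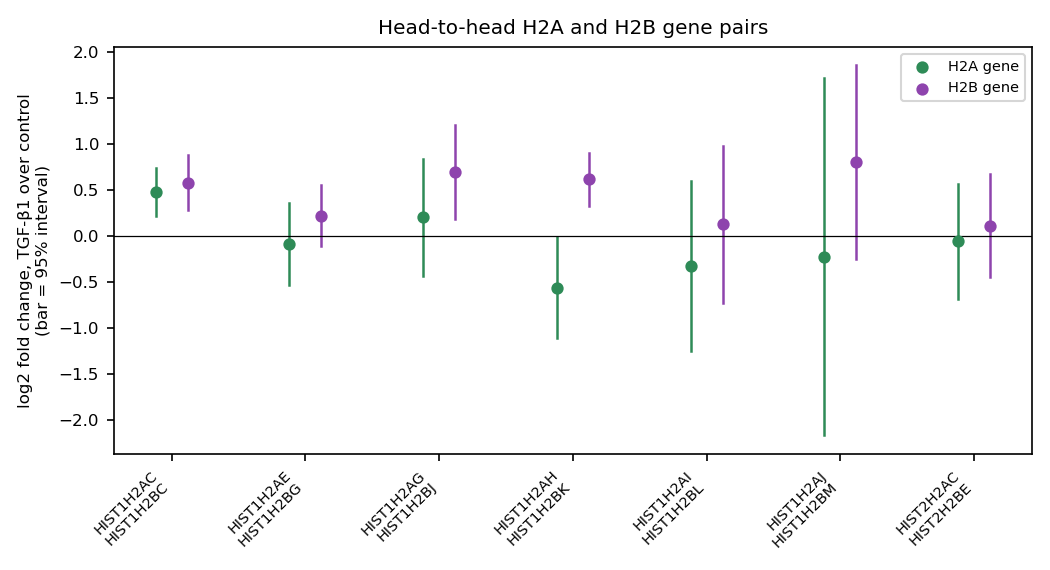
Log2 fold change of TGF-β1 over control (y axis) for the H2A gene (green) and the H2B gene (purple) of the 7 head-to-head pairs with both genes tested (x axis), with 95% intervals from limma. The H2B point lies above the H2A point in each pair, with intervals that overlap in all pairs except HIST1H2AH with HIST1H2BK, where the values are -0.56 and 0.62.

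For H3, 7 of 10 tested genes had a positive log2 fold change and 0 were called by limma, with 1 at an unadjusted p below 0.05 (HIST2H3D) and 0 called by voom. HIST1H3B was at 15.5 and 17.8 RPKM with TGF-β1, against 11.1 and 16.8 RPKM in controls. The groups overlapped by value range only through control library 2 (log2 fold change 0.27, adjusted p = 0.487). HIST1H3C was at 13.2 and 12.7 RPKM with TGF-β1, against 12.6 and 14.2 RPKM in controls (log2 fold change -0.048, 95% interval -0.30 to 0.21). HIST1H3F, the third by level, had 3 and 7 reads with TGF-β1, against 1 and 6 reads in controls. HIST1H3E was at 2.02 and 2.18 RPKM with TGF-β1, against 1.60 and 1.39 RPKM in controls, above both controls without passing (log2 fold change 0.39, adjusted p = 0.319). HIST2H3D had 6 and 3 reads with TGF-β1, against 1 and 2 reads in controls.

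For H4, 8 of 12 tested genes had a positive log2 fold change, 0 were called by limma or by voom, and 2 had an unadjusted p below 0.05, one in each direction. HIST1H4C, the most abundant, was at 30.7 and 38.8 RPKM with TGF-β1, against 24.1 and 33.5 RPKM in controls. In each group library 2 was the higher, and the groups overlapped (log2 fold change 0.28, adjusted p = 0.447). HIST1H4A was at 5.01 and 5.10 RPKM with TGF-β1, against 6.14 and 8.52 RPKM in controls, below both (log2 fold change -0.48, adjusted p = 0.180). HIST1H4B was at 5.22 and 6.06 RPKM with TGF-β1, against 4.38 and 3.16 RPKM in controls, above both (log2 fold change 0.54, adjusted p = 0.167). These neighbouring genes encode the same core histone and had opposite signs. HIST4H4, the lone member on chromosome 12, was at 1.63 and 1.85 RPKM with TGF-β1, against 0.972 and 1.53 RPKM in controls.

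The linker histones showed the smallest class median, and 0 of 5 tested H1 genes passed by limma or by voom, with 0 at an unadjusted p below 0.05. HIST1H1C was the most abundant at 35.0 and 40.2 RPKM with TGF-β1, against 26.9 and 37.0 RPKM in controls (log2 fold change 0.25, 95% interval -0.18 to 0.67). As for HIST1H4C, library 2 was the higher in each group and the groups overlapped. HIST1H1E was at 14.2 and 12.3 RPKM with TGF-β1, against 11.9 and 13.4 RPKM in controls, a log2 fold change of 0.059 that turned to -0.12 under scaling by recovered reads. HIST1H1B was at 5.48 and 7.64 RPKM with TGF-β1, against 5.85 and 4.53 RPKM in controls, again overlapping. HIST1H1D was at 3.07 and 4.94 RPKM with TGF-β1, against 5.09 and 4.95 RPKM in controls, both below the controls (log2 fold change -0.32). HIST1H1T, a testis linker histone, had 1 and 1 reads with TGF-β1, against 1 and 3 reads in controls. HIST1H1A, which had 0 reads in every library, could have had up to 0.983 to 1.37 RPKM in a library, the level of 3 reads, so its expression was not detectable at this depth, counting error only.

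By position, 29 members lie in the largest chromosome 6 group (chr6:26017085-26285638), where 1 was called and 18 of 28 tested genes had a positive log2 fold change (median 0.14). A group of 5 further along (chr6:27125897-27147515) held HIST1H2BK, 1 of 5 called (median 0.21), and the last group of 15 (chr6:27807444-27893843) had 0 called by limma, 12 positive and a median of 0.30. The 6 genes at chr1:149782689-149887916 had 5 tested, 4 of them positive. Depth and annotation bear on these values. The 23 members with at least 10 reads in every library included both called genes, 20 of them had a positive log2 fold change and their median was 0.25. In 11 members at least 1 library had 0 reads. The exon model was the coding sequence alone for 27 members, while 31 also held untranslated bases and 12 had 2 or more exons, up to 5477 bases in HIST1H2BN. RPKM divides by this annotated length, so levels of members with unlike models are less comparable than their fold changes. The median log2 fold change was 0.23 in the coding-only group, with 15 of 26 tested genes positive, and 0.26 in the other, with 24 of 29 positive. Among the members that share no 50-base word with another gene, 25 were tested, 15 were positive and the median was 0.11.

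The genes that make and protect histone mRNA were looked at beside the histone genes. Of 26 tested factors of transcription, 3′ processing and decay of histone mRNA, 3 rose, 1 fell and 22 did not pass. Of all genes, 9.12% were called. By limma 8 of the 26 had an unadjusted p below 0.05, against 25.0% of all genes. The factors' median log2 fold change was 0.089, which was 0.16 without control library 2 and became -0.069 under scaling by recovered reads. SLBP, which binds the stem-loop, fell: it was at 126.2 and 119.0 RPKM with TGF-β1, against 168.5 and 163.3 RPKM in controls (log2 fold change -0.43, limma adjusted p = 0.0194). The groups did not overlap, and the call was lost without TGF-β1 library 2 (adjusted p = 0.0776) and without control library 1 (adjusted p = 0.0583), while quantile normalisation gave -0.71. UPF1, a helicase that also acts in histone mRNA decay, rose to 24.0 and 25.0 RPKM with TGF-β1, against 15.7 and 17.1 RPKM in controls (log2 fold change 0.57, adjusted p = 0.0207 by limma). SNRPB, a core protein of spliceosomal and U7 particles, rose by a log2 fold change of 0.49, and SRRT, a partner of the cap-binding complex, by 0.29. These 4 calls, that of SLBP included, were all lost with no variance trend, where 0 of the factors were called. For SRRT the log2 fold change was 0.11 (limma adjusted p = 0.314) under scaling by recovered reads and 0.036 (adjusted p = 0.752) under quantile normalisation, which ended the call, while SNRPB was at 0.31 and 0.23 and passed in both. With 1 TGF-β1 library left out the limma call was lost for UPF1 (adjusted p = 0.0716 without library 1 and 0.10 without library 2), and that of SRRT was lost whichever library was left out (0.0919 to 0.16). SNRPB missed the threshold narrowly without TGF-β1 library 2 (adjusted p = 0.05005) or control library 2 (0.0556). NPAT, the coactivator of clustered histone genes, was at 3.34 and 1.96 RPKM with TGF-β1, against 3.35 and 3.18 RPKM in controls, and did not pass (adjusted p = 0.543). The U7-specific proteins LSM10 (log2 fold change 0.11) and LSM11 (-0.11) did not pass either.

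Histone variants, whose genes lie outside the clusters and are mostly expressed as polyadenylated mRNA through the cell cycle, gave 3 of 11 tested genes higher and 0 lower by limma, with 6 at an unadjusted p below 0.05, against 25.0% of all genes. By voom 7 were higher and 0 lower, in a fit that called 20.4% of all genes. H2AFX, the variant phosphorylated at DNA breaks, whose gene can also make a stem-loop mRNA, was at 185.2 and 174.0 RPKM with TGF-β1, against 122.5 and 120.8 RPKM in controls (log2 fold change 0.56, limma adjusted p = 0.00980). H3F3B, a gene of the H3.3 variant, was at 91.3 and 91.4 RPKM with TGF-β1, against 62.9 and 67.1 RPKM in controls (log2 fold change 0.49). H2AFJ rose by a log2 fold change of 0.68. H2AFX kept its limma call with each library left out (adjusted p at most 0.0339), but lost it under quantile normalisation (log2 fold change 0.28, adjusted p = 0.0543) and with no variance trend (adjusted p = 0.0971). The calls of H3F3B and H2AFJ were lost with no variance trend too (0.119 and 0.0939), and without TGF-β1 library 1 (adjusted p = 0.0547 and 0.0900) or library 2 (0.0621 and 0.167), and that of H2AFJ without control library 1 (0.0819) and under scaling by recovered reads (0.0559). H3F3B was at 0.31 under scaling by recovered reads and 0.26 under quantile normalisation, and passed in both. The variants' median was 0.24, close to the 0.25 of the clustered genes, and was 0.16 without control library 1 and 0.064 under scaling by recovered reads. On the RPKM scale H2AFX and H2AFZ, which was at 394.4 and 369.0 RPKM with TGF-β1 against 301.6 and 358.2 RPKM in controls, were above HIST1H2BK, the highest clustered histone gene.

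Values for genes of DNA replication were mostly negative. Of 40 S phase genes 34 had a negative log2 fold change (median -0.15), 2 fell (CDT1, which licenses origins, by 0.37 on the log2 scale, and MCM6, a subunit of the replicative helicase, by 0.37 on the log2 scale) and 0 rose by limma or voom. At an unadjusted p below 0.05 there were 11 of 40, against 25.0% of all genes, and voom called 10, all lower, in a fit that called 20.4% of all genes. Under scaling by recovered reads the median was -0.33, 13 of these genes were called and CDT1 was at -0.55. The number called was 0 with no filter on low values and 0 with no variance trend. With each library left out, 0 or 1 of the S phase genes was called: CDT1 kept its limma call only without control library 2 (adjusted p = 0.0464), and MCM6 lost it in all 4 cases (0.0570 to 0.159). PCNA (log2 fold change -0.33, adjusted p = 0.115) and CCNE2 (-0.48, adjusted p = 0.227) did not pass. Of 20 histone chaperone genes, 0 were called by limma, 3 had an unadjusted p below 0.05 and voom called 1, with a median of -0.041. Of 3 RNAs without a poly(A) tail in the table, RN7SL2, an RNA of the signal recognition particle with near-identical copies, was at 1416 and 1168 RPKM with TGF-β1, against 744.7 and 645.0 RPKM in controls (log2 fold change 0.89, limma adjusted p = 0.0186, and 0.0530 without control library 2). RN7SL3 (0.78) and SNORD3A (-0.11) did not pass. The call of RN7SL2 was also lost with no filter on low values and with no variance trend, where 0 of these RNAs were called. The part of such RNAs, or of RNA selection, in the histone values was not tested.

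**Figure D5:**
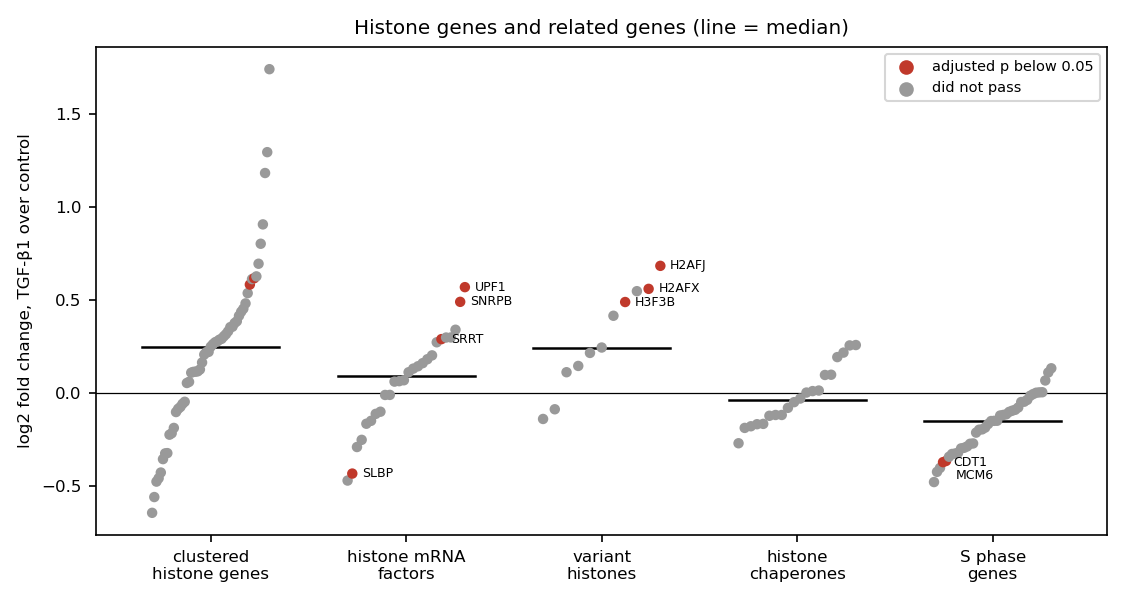
Log2 fold change of TGF-β1 over control (y axis) for each tested gene of the clustered histone genes and of 4 related lists (x axis), ordered by value within a list, with a line at each median. The medians are 0.25, 0.089, 0.24, -0.041 and -0.15 from left to right, and red points, labelled outside the clustered histones, passed an adjusted p of 0.05.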

How the data were processed

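RNA from 2 TGF-β1 and 2 control HK-2 libraries was analysed from the RPKM values that the authors deposited, which carry an offset of 0.5 read and a library scaling of the authors' own (0.864 to 1.02 times the recovered reads). Per the submitters' processing notes, bcl2fastq 2.20.0.422, STAR 2.7.1a, DESeq2 and hg38 were used, with no role given, and the sources used here do not say how reads of near-identical histone genes were assigned. Whole reads were recovered from the RPKM steps and GENCODE 29 exon lengths (100% of the values of 23853 genes of the same version came out whole within 0.01 read). log2(RPKM + 0.5) of the 16590 genes with a mean of at least 0.5 RPKM was fitted with limma 3.58.1 (R 4.3.3; eBayes with a variance trend, no block), tested on simulated data. Alternatives covered pseudocount, filter, scaling, trend, voom on recovered reads, a replicate block and each library left out. Called genes and the 3 members of highest mean RPKM per class are given in every library. 1 gene of the histone mRNA factor list is not reported here. Members and gene lists were chosen with earlier results of these data known. The number of reads limits the precision of low genes.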

Additional observations from a re-analysis of the deposited data

How the results depend on the processing

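The 2 called histone genes depend on the processing. The number called higher was 0 with no filter on low values, under scaling by recovered reads, median-of-ratios scaling and quantile normalisation, and with no variance trend. It ran from 0 to 3 with each library left out. The 3 (HIST1H2AB, HIST1H2BI and HIST2H2AB) were other genes, called without control library 2. HIST1H2BK kept its direction in all 15 alternatives (log2 fold change 0.37 to 0.75, limma adjusted p 0.0025 to 0.15), and HIST1H2BC in all 15 (0.41 to 0.64, adjusted p 0.0271 to 0.222). The number called lower ran from 0 to 1 with each library left out, the 1 being HIST1H2BB without control library 1. The median of the histone genes stayed positive, between 0.070 and 0.37, and the ratio of summed levels between 1.08 and 1.32; recovered reads without the offset, an alternative chosen after seeing the data, gave 1.24.

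The count of all genes called was 977 with no filter, 424 with no variance trend, 3364 with voom on recovered reads, and 574 to 1138 with each library left out. Over all 55 tested members, 39 were positive with all libraries and the authors' scaling. The number was 32 under scaling by recovered reads and 32 without TGF-β1 library 2. Among the 16 members given in every library, signs turned for 5 that did not pass. HIST1H1E had a log2 fold change of -0.12 under scaling by recovered reads and -0.021 under quantile normalisation. With each library left out the range was -0.044 to 0.16 for HIST1H1E, -0.28 to 0.11 for HIST1H2AE, -0.016 to 0.56 for HIST1H3B, -0.14 to 0.039 for HIST1H3C and -0.21 to 1.08 for HIST1H3F. List medians under scaling by recovered reads were -0.069 for histone mRNA factors, 0.064 for variants, -0.23 for chaperones and -0.33 for S phase genes. Under quantile normalisation they were 0.058 for variants, -0.14 for chaperones and -0.31 for S phase genes. The chaperone median was -0.074 under median-of-ratios scaling. With each library left out it ran from -0.055 to 0.011, and that of variants from 0.16 to 0.34. The number of S phase genes called ran from 0 to 13, of mRNA factors from 0 to 7, of variants from 0 to 7 and of chaperones from 0 to 2 over the alternatives. The cause was not tested.

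The labels do not say whether libraries of the same replicate number were paired. Deviations from the group means correlated at r = 0.026 between same-numbered libraries over 16590 genes, which cannot settle it. In every class, library 2 had the higher sum in both groups under the authors' scaling. With the replicate number as a block, 1344 genes were called, 0 histone genes were called higher and 0 lower, with adjusted p of 0.0531 for HIST1H2BK and 0.0793 for HIST1H2BC by limma. The limma adjusted p with this block was 0.111 for HIST1H4C and 0.189 for HIST1H1C, against 0.447 and 0.436 without it. With 2 libraries in a group, a left-out library leaves a lone one, which is assumed to vary like the other group.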
